A study of Homo sapiens with 6 samples.

Results

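CYP1A1, TIPARP, GSTM3 and GSTM4 are xenobiotic-metabolism genes that plant flavonoids and indoles can act on, and they were taken from the deposited table by gene symbol. All 4 symbols were found, each once, among the 1099 genes of the table. The extract-treated cells carried the label A549, a lung adenocarcinoma line of wild-type genotype, and were kept for 24 h with F/B extract (3 libraries). By the series title the extract combines Flos Sophorae Immaturus, pagoda-tree flower buds, with broccoli seed. The vehicle cells, of the same label and genotype, were kept for the same time with vehicle, DMSO (3 libraries). The labels do not give the dose of the extract, nor do they tie replicates to separate cultures. The p-values thus cover the spread between these libraries alone, and that spread may be technical.

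The aryl hydrocarbon receptor (AhR) is a ligand-activated transcription factor of the cytosol. Bound by dioxins, polycyclic hydrocarbons, indoles or some flavonoids, it enters the nucleus, pairs with ARNT and switches on genes through short xenobiotic response elements. CYP1A1, a cytochrome P450 that oxidises aromatic compounds, is its best known target, and TIPARP, a mono-ADP-ribosyltransferase also called PARP7, is another and feeds back to restrain the receptor. GSTM3 and GSTM4 encode glutathione S-transferases of the mu class, which couple reactive compounds to glutathione in the conjugating phase of detoxification.

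The table lists only the genes with the smallest p-values of the authors' own comparison, 9.74% of 11289 tested, so each listed gene had already been selected as different between the groups. Estimated counts over the listed genes summed to between 3084337 and 3242553 in the extract libraries and between 3436540 and 4640114 in the vehicle libraries, which is not sequencing depth. The cell label is in doubt. The library names begin with AGS, the name of a gastric line, and MTAP, a gene known to be deleted in A549, stood at 48.9 to 55.9 TPM in extract libraries and 55.97 to 60.5 TPM in vehicle libraries. Listing follows from a small p-value and not from expression, so the number of markers listed says nothing about the line. Of 9 lung adenocarcinoma line markers 0 were listed and have a value here, and of 15 gastrointestinal epithelial markers 4 were (VIL1, CDH17, TFF1 and REG4). The 4 summed to 224 to 256 TPM with extract and 327 to 341 TPM with vehicle, so they moved in the same direction as the 4 genes described here, and their part in the result was not tested.

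CYP1A1, TIPARP, GSTM3 and GSTM4 were lower with extract. CYP1A1 fell 2.51-fold in normalised counts (estimated counts divided by a size factor per library), while the other 3 fell by between 1.19-fold and 1.26-fold. All 4 passed edgeR's quasi-likelihood test at a Benjamini-Hochberg adjusted p of 0.05, where 52.8% of all listed genes were called lower and 28.9% higher. Over the 4 genes the median log2 fold change was -0.32, against -0.22 over all listed genes and -0.30 over those called lower. The count of 4 is therefore read against a table in which every gene had been selected on a small p-value. RNA was taken from whole cultures, so fewer cells carrying a transcript and less transcript per cell cannot be told apart.

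CYP1A1 (ENSG00000140465, GENCODE release 29 on GRCh38, chromosome 15, 74719542 to 74725610, minus strand) had 151, 130.3 and 132 normalised counts in extract libraries 1 to 3, against 295, 353 and 387 in vehicle libraries 1 to 3. The highest extract library stood well below the lowest vehicle library, and the 3 extract libraries lay closer together than the 3 vehicle libraries. The means were 138 ± 11.7 with extract and 345 ± 46.5 with vehicle (SD, n = 3 each), and the log2 fold change was -1.33 with an SE of 0.13 (adjusted p = 0.00122 by edgeR). It ranked 5 from the lowest log2 fold change of all listed genes. In the authors' deposited table CYP1A1 was 1 of 11 genes marked significant, or 1.0% of the table, all of them changed by 1.02 or more on the log2 scale. The call held in each of the 17 other settings tried, with log2 fold changes from -1.42 to -0.87.

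TIPARP (ENSG00000163659, chromosome 3, 156673235 to 156706770, plus strand) had 1492, 1642 and 1713 normalised counts in extract libraries 1 to 3 and 2079, 1991 and 2056 in vehicle libraries 1 to 3. The groups did not overlap, and the vehicle libraries differed from each other by less than the extract libraries did. The means were 1616 ± 113 with extract and 2042 ± 45.5 with vehicle (SD, n = 3 each), and the log2 fold change was -0.34 with an SE of 0.06 (adjusted p = 0.00847 by edgeR). The annotated gene overlaps the antisense gene TIPARP-AS1 by 1144 bases, and strand in the counting is not stated in the sources used here.

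GSTM3 (ENSG00000134202, chromosome 1, 109733932 to 109741038, minus strand) had 2162, 2079.6 and 2016 normalised counts in extract libraries 1 to 3 and 2449, 2555 and 2449.9 in vehicle libraries 1 to 3. The groups were separate, with a gap larger than the range within either of them. The means were 2086 ± 73.1 with extract and 2485 ± 60.9 with vehicle (SD, n = 3 each), and the log2 fold change was -0.25 with an SE of 0.05 (adjusted p = 0.0112 by edgeR).

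GSTM4 (ENSG00000168765, chromosome 1, 109656081 to 109674836, plus strand) had 6648, 6189 and 5835 normalised counts in extract libraries 1 to 3 and 7023, 7979 and 7989.8 in vehicle libraries 1 to 3. Vehicle library 1 stood nearer to the highest extract library than to the other vehicle libraries, but the groups did not overlap. The means were 6224 ± 408 with extract and 7664 ± 555 with vehicle (SD, n = 3 each), and the log2 fold change was -0.30 with an SE of 0.06 (adjusted p = 0.0207 by edgeR).

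**Figure D1:**
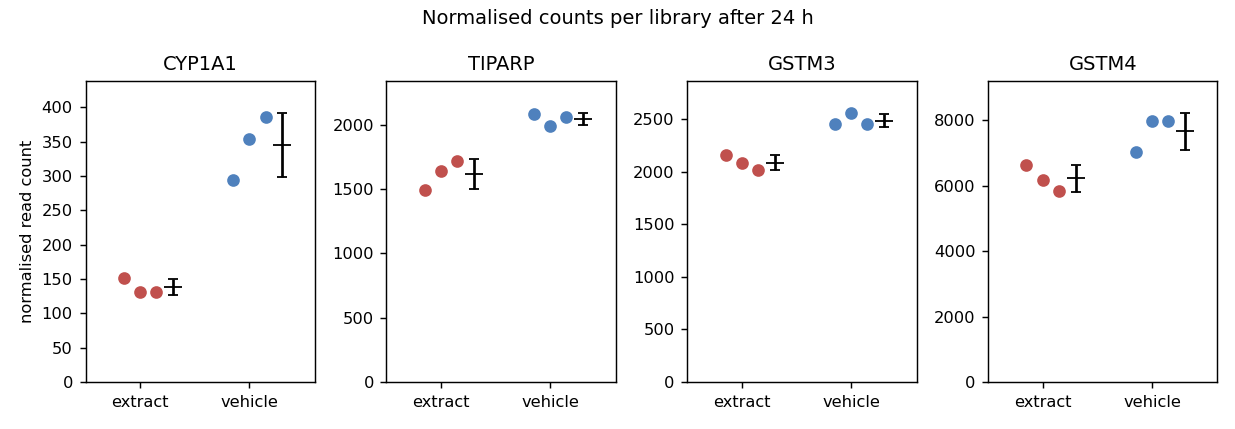
Normalised read counts (y axis, from 0) of the 4 genes in each extract and each vehicle library, with points for libraries and black bars for the mean ± SD (n = 3 each). In all 4 panels every extract library lies below every vehicle library; relative to its own level the gap is widest in CYP1A1.

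In normalised counts, every extract library lay below every vehicle library for all 4 genes, as it did for 63.8% of the listed genes. The smaller decreases depended on how libraries were scaled. The main size factors were those that the authors' fold changes imply. Scaling by the deposited TPM values moved the median log2 fold change of the listed genes up by 0.082, and scaling by listed-gene sums, by TMM and by DESeq2 size factors moved it up by 0.14, 0.15 and 0.17. CYP1A1 passed on all 4 of these scales. GSTM4 passed on the TPM scale (edgeR adjusted p = 0.0379) and not on the other 3, while TIPARP and GSTM3 passed on none of them. At these scales 19.5% (TPM), 11.5% (sums), 7.92% (TMM) and 7.83% (DESeq2) of all listed genes were called lower. The last 3 scales rest on the listed genes alone, all selected on small p-values, with 712 lower and 387 higher in the main fit. Such a scale may not be centred, so a call lost on it does not settle whether the gene changed. No sign changed, and the smallest decrease was that of GSTM3 with DESeq2 size factors, at -0.079 on the log2 scale. Leaving out 1 library also ended calls: that of GSTM3 was lost without vehicle library 2 and without extract library 2 (edgeR adjusted p = 0.0766 and 0.0665). The call of GSTM4 was lost without any 1 of vehicle libraries 2 and 3 and extract libraries 2 and 3 (edgeR adjusted p from 0.0542 to 0.115). TIPARP kept its call in these 6 settings (edgeR adjusted p from 0.00773 to 0.0460).

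**Figure D2:**
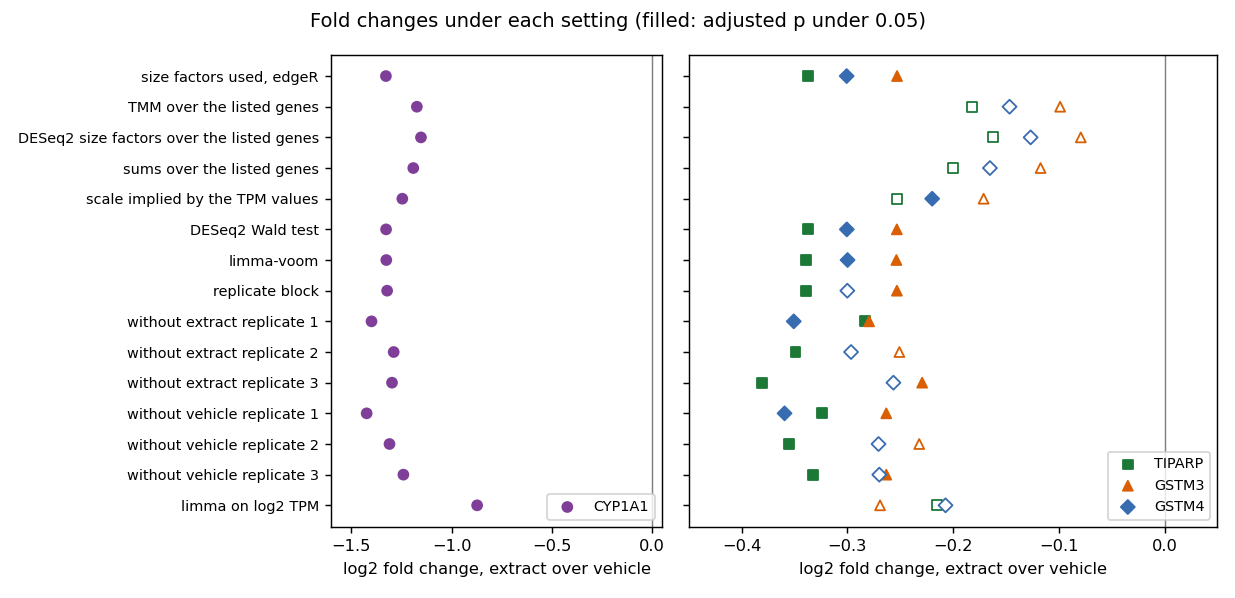
Log2 fold changes, extract over vehicle (x axis), of CYP1A1 on the left and of TIPARP, GSTM3 and GSTM4 on the right by setting (rows, without the filters and the adjustment over listed genes); filled symbols passed an adjusted p of 0.05. CYP1A1 is filled in every row, while the other 3 lie between -0.38 and -0.079 and are open in several rows.

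Ratios between 2 of these genes within 1 library do not depend on library scaling. In extract libraries 1 to 3, CYP1A1 had 10.1%, 7.94% and 7.68% as many estimated counts as TIPARP, against 14.2%, 17.7% and 18.8% in vehicle libraries 1 to 3. The groups did not overlap. The log2 ratio of CYP1A1 to TIPARP differed by -0.98 (SE 0.18, extract minus vehicle), that of CYP1A1 to GSTM3 by -1.07 (SE 0.12) and that of CYP1A1 to GSTM4 by -1.02 (SE 0.069). CYP1A1 was thus 1.97-fold to 2.09-fold lower relative to each of the other 3. Each of these 3 ratios was lower in every extract library than in every vehicle library, with an exact two-sided permutation p of 0.1, the smallest that 3 libraries against 3 allow (0.2 after adjustment over the 6 pairs). With TPM in place of counts these 3 log2 differences were -0.67, -0.61 and -0.68, and the groups again did not overlap.

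Among the other 3 genes the ratios overlapped between the groups. GSTM3 had 32.5%, 33.6% and 34.5% as many estimated counts as GSTM4 in extract libraries 1 to 3, against 34.9%, 32.0% and 30.7% in vehicle libraries 1 to 3. The difference of the log2 ratio was 0.047 (SE 0.060) for GSTM3 to GSTM4, -0.040 (SE 0.14) for TIPARP to GSTM4 and -0.087 (SE 0.096) for TIPARP to GSTM3 (exact permutation p = 0.5, 0.9 and 0.7). With 3 libraries against 3, no such difference could have passed a threshold of 0.05.

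Per transcript length, the levels of these genes spanned a wide range in one order in both groups. In TPM, GSTM4 averaged 478 ± 16.4 with extract and 552 ± 38.0 with vehicle, and GSTM3 averaged 146 ± 8.21 with extract and 176 ± 10.3 with vehicle (SD, n = 3 each). TIPARP averaged 39.9 ± 2.55 TPM with extract and 46.2 ± 1.45 TPM with vehicle, and CYP1A1 averaged 6.48 ± 0.86 TPM with extract and 12.0 ± 1.72 TPM with vehicle (SD, n = 3 each). In all 6 libraries the order was GSTM4, GSTM3, TIPARP, CYP1A1, and no neighbours in that order overlapped. CYP1A1 was the scarcest transcript of the 4 with or without extract. By TPM too, every extract library lay below every vehicle library for the 4 genes, as for 44.2% of the listed genes.

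**Figure D3:**
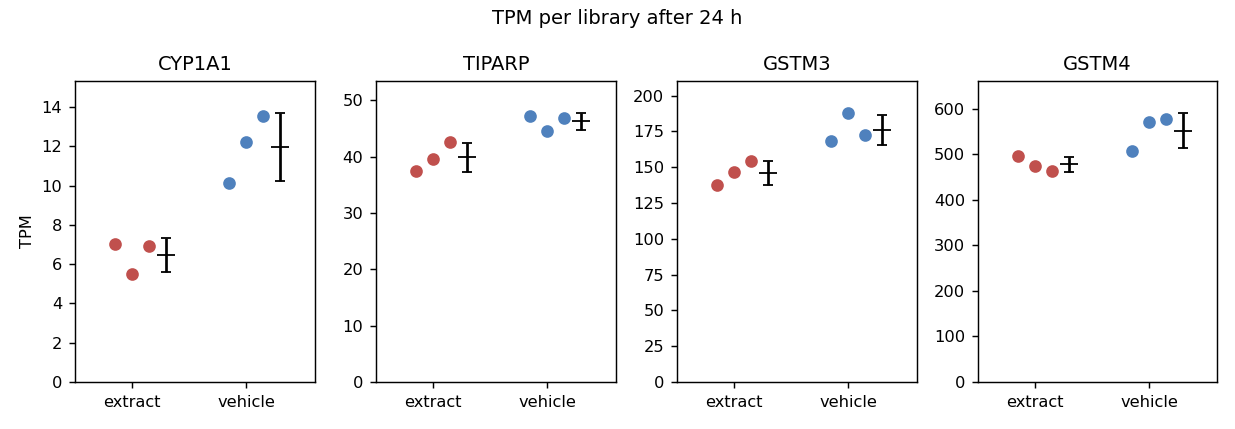
TPM (y axis, from 0) of the 4 genes in each extract and each vehicle library, with points for libraries and black bars for the mean ± SD (n = 3 each). The scale differs between panels: GSTM4 lies at 463 to 577 TPM and CYP1A1 at 5.49 to 13.6 TPM.

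CYP1A1 fell less in TPM than in counts. Its TPM was 7.05, 5.49 and 6.91 in extract libraries 1 to 3 and 10.1, 12.2 and 13.55 in vehicle libraries 1 to 3. That is a 1.85-fold decrease of the mean, against 2.51-fold in normalised counts. In limma on log2(TPM + 0.1), an alternative chosen after seeing the data, the log2 fold change of CYP1A1 was -0.87 (adjusted p = 0.0232), and TIPARP, GSTM3 and GSTM4 did not pass (adjusted p = 0.241, 0.0818 and 0.162). By that test 6.64% of all listed genes were called lower.

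Dividing a gene's counts by its TPM, and by a constant per library, gives the transcript length the authors' quantification assigned to it, up to scale. For CYP1A1 this length was 76.0%, 86.7% and 72.7% of the vehicle mean in extract libraries 1 to 3, against 102%, 98.9% and 99.5% in vehicle libraries 1 to 3. Each extract library was below each vehicle library. The extract mean was 78.4% ± 7.34, where the vehicle SD was 1.43 (n = 3 each), and the log2 difference was -0.35. CYP1A1 ranked 3 from the most shortened of the listed genes, of which the middle 90% (the 5th to the 95th percentile) lay between -0.10 and 0.10. Its lengths rest on 139, 125 and 123 estimated counts in extract libraries 1 to 3, far fewer than for TIPARP, GSTM3 or GSTM4. The rank did not take account of count level, and a length from few counts is less certain. GENCODE release 29 gives CYP1A1 10 transcripts of 796 to 2685 bases, and which of them the reads were assigned to was not analysed here. The lengths of GSTM4 and TIPARP averaged 99.3% ± 0.64 and 97.2% ± 4.49 of the vehicle mean with extract, where their vehicle SDs were 0.59 and 0.35. TIPARP was at 92.0% in extract library 1 and at 99.2% and 100.3% in the other extract libraries. GSTM3 was at 107% ± 5.89 with extract, where the vehicle SD was 4.49, and its groups overlapped. The pattern was noticed in these data and no test of it was made.

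**Figure D4:**
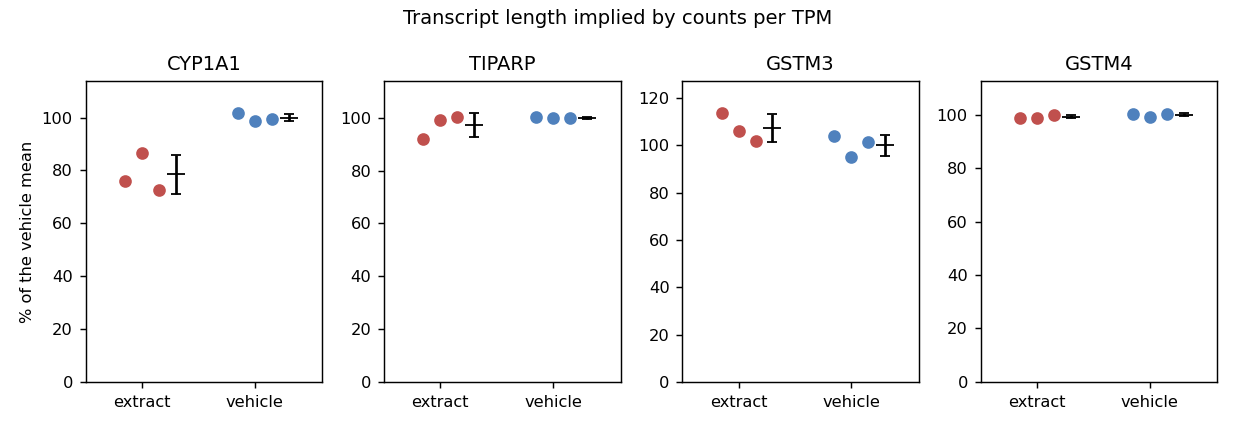
Transcript length implied by counts per TPM, as percent of the vehicle mean (y axis, from 0), in each extract and each vehicle library, with points for libraries and black bars for the mean ± SD (n = 3 each). CYP1A1 alone of the 4 genes shows extract libraries, at 72.7% to 86.7%, clearly below its vehicle libraries.

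The mu-class genes are related in sequence, and reads can be shared between some of them. GENCODE release 29 places GSTM4, GSTM2, GSTM1, GSTM5 and GSTM3 in 1 cluster on chromosome 1, with 59096 bases between GSTM4 and GSTM3. GSTM1, GSTM2 and GSTM5 were not among the listed genes. Of the distinct 50-base stretches in the GSTM4 transcripts, 16.95% also occurred in transcripts of another gene, 7.44% in GSTM2, 6.96% in GSTM1 and 5.81% in GSTM5. For GSTM3 the share was 4.80%, with 3.15% in the overlapping gene AL158847.1 and 0.51% each in AC051619.6 and DUOX1. No mu-class gene was among these largest partners. For CYP1A1 and TIPARP the share was 0.0%. The estimated counts were not whole numbers (to within 0.005) in 6 of 6 libraries for GSTM4, 3 of 6 for GSTM3 and 0 of 6 for CYP1A1 and TIPARP. Between 31.8% and 35.9% of the listed genes were not whole in a library, and a link between these fractions and the shared stretches was not tested. The values of GSTM4 are uncertain where the authors' counting could split reads between these genes. The annotated spans of GSTM4, up to base 109674836, and GSTM2, from base 109668022, also overlap on the same strand. Reads from that overlap could be counted for either gene. The annotated span of GSTM5, up to base 109775428, runs across GSTM3 on the opposite strand.

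The promoters of the 4 genes are shown, 250 bases before to 50 bases after the transcription start, from RefSeq on GRCh38.p14, 5′ to 3′ on the gene's strand. All 4 matched by symbol, and of 3 TIPARP starts the one given here is the first listed. Capitals mark GCGTG, the core of the xenobiotic response element bound by AhR and ARNT, or its reverse complement CACGC. The windows are chr15:74725479-74725778 for CYP1A1, chr3:156674340-156674639 for TIPARP, chr1:109740989-109741288 for GSTM3 and chr1:109655849-109656148 for GSTM4.
CYP1A1: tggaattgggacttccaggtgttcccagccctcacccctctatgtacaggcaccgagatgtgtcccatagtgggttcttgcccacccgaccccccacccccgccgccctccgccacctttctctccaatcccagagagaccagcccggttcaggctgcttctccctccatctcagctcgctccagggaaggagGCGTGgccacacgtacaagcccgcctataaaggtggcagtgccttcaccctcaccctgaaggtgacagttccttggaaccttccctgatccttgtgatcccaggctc
TIPARP: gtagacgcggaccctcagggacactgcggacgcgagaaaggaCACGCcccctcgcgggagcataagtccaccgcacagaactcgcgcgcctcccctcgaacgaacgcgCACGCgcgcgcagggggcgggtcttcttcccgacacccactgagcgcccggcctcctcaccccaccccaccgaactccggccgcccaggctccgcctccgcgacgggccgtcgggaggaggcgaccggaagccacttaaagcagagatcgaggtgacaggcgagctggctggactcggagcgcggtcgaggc
GSTM3: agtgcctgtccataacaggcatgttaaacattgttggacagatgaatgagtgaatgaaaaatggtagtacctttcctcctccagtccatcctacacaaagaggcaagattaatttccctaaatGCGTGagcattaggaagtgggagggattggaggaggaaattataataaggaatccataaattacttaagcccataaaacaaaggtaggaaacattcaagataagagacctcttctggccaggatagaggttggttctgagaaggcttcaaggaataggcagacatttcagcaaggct
GSTM4: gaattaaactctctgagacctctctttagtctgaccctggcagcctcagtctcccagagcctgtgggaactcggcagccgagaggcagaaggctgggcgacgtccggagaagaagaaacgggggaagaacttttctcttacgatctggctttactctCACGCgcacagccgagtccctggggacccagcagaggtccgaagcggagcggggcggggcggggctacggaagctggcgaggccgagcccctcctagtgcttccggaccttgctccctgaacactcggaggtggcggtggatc

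Each of these 4 windows held the core: 1 copy for CYP1A1, GSTM3 and GSTM4, beginning 57, 127 and 93 bases before the start, and 2 for TIPARP, 208 and 142 bases before it. The windows of the other TIPARP starts held none. Of 35116 RefSeq promoter windows of the same length, 36.5% held the core on either strand, so a match is common. The letters TGACNNNGC, the core of the antioxidant response element bound by NRF2, or their reverse complement were in none of the 4 windows and in 13.3% of all windows. The response elements known to drive CYP1A1 lie further upstream than this window, and a match here is a description, not a site.

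The receptor itself was also listed, and lower. AHR (ENSG00000106546, chromosome 7) had 2726, 2810.4 and 2991 normalised counts in extract libraries 1 to 3 and 3257, 3272 and 3535 in vehicle libraries 1 to 3. These groups did not overlap, and the means were 2843 ± 136 with extract and 3355 ± 156 with vehicle (SD, n = 3 each), and the log2 fold change was -0.24 with an SE of 0.05 (adjusted p = 0.0223 by edgeR). In TPM the groups did overlap, at 61.2, 63.1 and 61.25 in extract libraries and 60.1, 65.35 and 74.4 in vehicle libraries. The call was lost with each of the other 4 scalings, with limma on log2 TPM, and without extract library 2, vehicle library 2 or vehicle library 3. Neither ARNT nor the repressor AHRR was listed.

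Of 14 AhR targets 4 were listed, and 3 of these fell while 1 rose, where 712 of all 1099 listed genes fell. Besides CYP1A1 and TIPARP, NFE2L2, the gene of the antioxidant regulator NRF2, was at -0.16 (SE 0.04, edgeR adjusted p = 0.0290), a call lost with all 4 other scalings, with limma on log2 TPM and without any 1 of extract libraries 1 and 2 and vehicle libraries 2 and 3, and its log2 fold change was 0.012 with DESeq2 size factors. NQO1, a quinone reductase that AhR and NRF2 both induce, had 5699 ± 200 normalised counts with extract and 4930.1 ± 20.0 with vehicle (SD, n = 3 each), and the log2 fold change was 0.21 with an SE of 0.04 (adjusted p = 0.0154 by edgeR). Its call was lost with limma on log2 TPM and without extract library 2, vehicle library 2 or vehicle library 3. CYP1A2, CYP1B1, AHRR and ALDH3A1, which are also induced through the receptor, were not listed. CYP1B1-AS1, a transcript named as antisense to CYP1B1, was listed and at -0.47 (SE 0.08, edgeR adjusted p = 0.00991). It was chosen after its values were seen, and it was lower in all 3 extract libraries than in any vehicle library. Its call was lost with TMM, with DESeq2 size factors, with limma on log2 TPM and without vehicle library 2.

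Over all 9 lists of xenobiotic metabolism, 13 of 143 distinct genes were listed, a share close to the 9.74% of all genes the authors tested, so the number listed is not a result about these genes. Of 22 glutathione transferases GSTM3 and GSTM4 were the 2 listed, and of 33 cytochromes P450 and partner proteins CYP1A1 was the 1 listed. Of 13 genes of glutathione synthesis and reduction the cystine transporter SLC7A11 was listed and rose, at 0.20 (SE 0.04, edgeR adjusted p = 0.0218), with its call lost in the same 4 settings as that of NQO1. Of 19 aldo-keto, aldehyde and carbonyl enzymes NQO1 and ALDH7A1 were listed, the second at 0.22 and short of the threshold (edgeR adjusted p = 0.118), which it passed with all 4 other scalings and without extract library 3. None of 16 other conjugating enzymes and none of 11 drug and glutathione-conjugate transporters was listed. Genes absent from the table have no value here. In the authors' own pathway annotation, 3 listed genes carried metabolism of xenobiotics by cytochrome P450, and these were CYP1A1, GSTM3 and GSTM4. Of 6 listed genes annotated to glutathione metabolism 3 fell, GSTM3, GSTM4 and the peroxiredoxin PRDX6 at -0.18 (edgeR adjusted p = 0.0387). Another 2 rose, LANCL1 at 0.30 and IDH1 at 0.25 (edgeR adjusted p = 0.0188 and 0.0132). ODC1 was at 0.17 and did not pass (edgeR adjusted p = 0.122). The monoamine oxidase MAOA, at -0.80 (SE 0.13, edgeR adjusted p = 0.00799), shared the annotation to drug metabolism with GSTM3 and GSTM4. PRDX6, LANCL1, IDH1, ODC1 and MAOA are given from the main fit alone. The other scales moved the median log2 fold change of the listed genes up by as much as 0.17, about the size of the PRDX6 decrease.

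TIPARP moved against the other listed members of the PARP family. Of 17 genes of this family 5 were listed, with TIPARP lower and PARP9, PARP12, PARP14 and ZC3HAV1 higher. All 5 passed the test, where 52.8% of all listed genes were called lower and 28.9% higher. TIPARP lost its call on each of the 4 other scales and with limma on log2 TPM. PARP14 had 3354 ± 212 normalised counts with extract and 2612 ± 78.9 with vehicle (SD, n = 3 each), and the log2 fold change was 0.36 with an SE of 0.05 (adjusted p = 0.00522 by edgeR). PARP9, PARP12 and ZC3HAV1, the zinc-finger antiviral protein, were at 0.32, 0.34 and 0.37. These 4 are known as interferon-induced genes, and TIPARP is known to dampen interferon signalling. The 4 stayed higher in all 17 other settings, where the scales used as alternatives raise log2 fold changes. The 2 filters and the adjustment over the listed genes leave log2 fold changes as they were. Of their calls 2 held without vehicle library 2, 1 without vehicle library 3 and 1 without extract library 2. In these settings 50, 80 and 72 of all listed genes were called higher. PARP12 also lost its call without extract library 3 and without vehicle library 1 (edgeR adjusted p = 0.0639 and 0.0724). With limma on log2 TPM 0 of the 4 passed, and all 4 had an unadjusted p under 0.05.

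**Figure D5:**
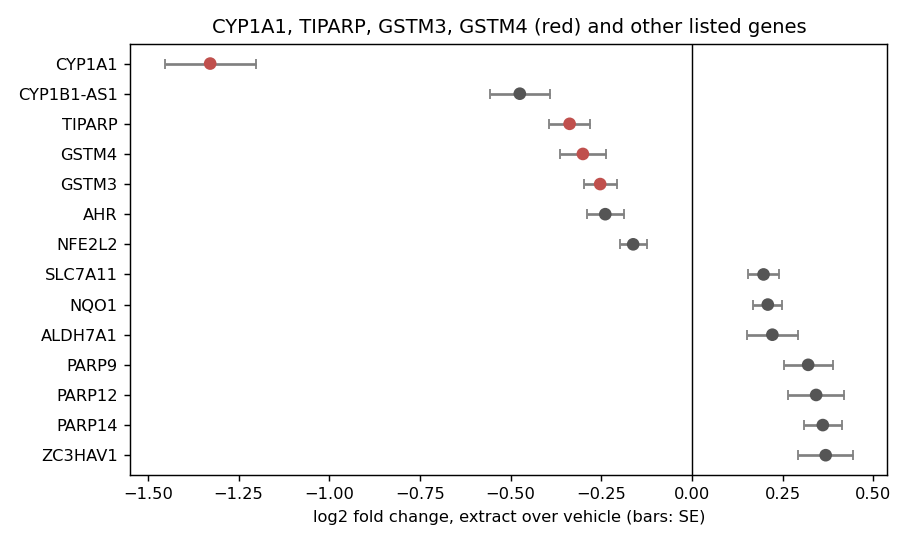
Log2 fold change, extract over vehicle (x axis, bars are SE), of the 4 genes (red), of the 9 other listed genes from the xenobiotic-metabolism lists and of CYP1B1-AS1 (grey). CYP1A1 stands far below the rest, while NQO1, SLC7A11 and the 4 other PARP-family genes lie above 0.

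The genes whose course over the 6 libraries was most like that of each gene were found by the root mean square difference of centred log2 normalised counts, among 1062 listed genes. For CYP1A1 these were KRT13, a keratin (0.09), AQP1 (0.17) and CCNB3 (0.18). For TIPARP they were NIFK, TRIB1 and CACNG8 (0.02 to 0.03). For GSTM3 they were RPL26, NDUFB11 and BZW2 (0.01 to 0.02), and for GSTM4 FKBP4, DCTPP1 and MYEOV (0.02). GSTM3 and GSTM4 differed from each other by 0.06, TIPARP from GSTM3 by 0.11 and from GSTM4 by 0.14, and CYP1A1 from each of the 3 by 0.51 to 0.55. These differences were not scaled to each gene's own spread. The log2 SD over the 6 libraries was 0.74 for CYP1A1, 0.20 for TIPARP, 0.14 for GSTM3 and 0.19 for GSTM4.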

How the data were processed

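The authors deposited 1 table with estimated counts per gene and library, rounded here to whole numbers. Per the file headers it also holds the authors' TPM per library and, from their own comparison, a ratio of vehicle over extract, its log2 value and a p-value with its adjusted form. Values computed here are extract over vehicle. The submitters' processing notes name GRCh38.p13 as genome build. Which aligner, counting program and annotation release were used is not given in the sources used here.

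Deposited p-values fit a Benjamini-Hochberg adjustment over 11289 genes (largest relative error 0.00445), of which the 1099 listed have the smallest p-values (at most 0.00535). Libraries were scaled by the size factors that bring DESeq2 fold changes nearest to the deposited ones (median absolute log2 difference 6.36e-05): 0.920, 0.959 and 0.935 for extract libraries 1 to 3 and 0.940, 1.23 and 1.04 for vehicle libraries 1 to 3. edgeR 4.0.16 in R 4.3.3 fitted all listed genes (quasi-likelihood test, no covariate), and p-values were adjusted over 11289 genes at 0.05. edgeR's filter removed 0 genes. SE is the size of the log2 fold change over the root of F. The spread was estimated from genes already selected on small p-values, so p-values may be too small. Alternatives were 4 scales, DESeq2 1.42.0, limma-voom and limma on log2 TPM (limma 3.58.1), 2 filters, a replicate block, adjustment over the listed genes and leaving out each library. Ratios were compared with exact two-sided permutation tests (scipy 1.17.1). The fit was tested on simulated data with known size factors and no selection of genes on p-values. That simulation does not bear on the choice of scale or on the selection of the listed genes.

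The 4 genes, the 9 xenobiotic-metabolism lists and the marker lists were chosen with earlier results of these data known. Named genes were the 4, every listed gene of those lists, MTAP, and the 3 listed genes nearest to each of the 4 in pattern. Depth per library is not known, since the table holds part of each library.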

Additional observations from a re-analysis of the deposited data

How the results depend on the processing

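Genes called lower numbered 4 of the 4. They numbered 2 with libraries scaled by TPM, 1 with listed-gene sums, 1 with TMM, 1 with DESeq2 size factors and 1 with limma on log2 TPM. Leaving out 1 library gave 2 to 4. The listed genes called lower were 580, against 214 scaled by TPM, 126 by sums, 87 by TMM, 86 by DESeq2 size factors, 73 with limma on log2 TPM and 127 to 569 with 1 library left out. Those called higher were 318, against 115 with limma on log2 TPM and 50 to 287 with 1 library left out. Of the 9 other listed genes of the xenobiotic lists, 6 were called higher, against 7 on each of the 4 other scales. The number was 0 with limma on log2 TPM (7 at an unadjusted p under 0.05) and 1 to 6 with 1 library left out. Of the same 9, edgeR called 2 lower, against 0 on each of the 4 other scales (1 at an unadjusted p under 0.05 when scaled by TPM, 0 on the others), 0 with limma on log2 TPM (0 unadjusted) and 0 to 2 with 1 library left out.

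Same-numbered libraries did not deviate together (correlations over listed genes of -0.23, -0.010 and -0.032), and 0 of 6 libraries correlated best with their own number. With the replicate block 3 of the 4 genes were called lower (not GSTM4, edgeR adjusted p = 0.0753), and 90 listed genes were called higher and 232 lower, with 1 (PARP14) and 1 (AHR) of the 9 other genes. NFE2L2, NQO1, SLC7A11, PARP9, PARP12 and ZC3HAV1 lost their calls under this block (edgeR adjusted p from 0.0574 to 0.0989).

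NFE2L2 changed sign with DESeq2 size factors, to 0.012. The small ratios between TIPARP, GSTM3 and GSTM4 changed sign too. With TPM in place of counts TIPARP to GSTM3 was 0.054 and GSTM3 to GSTM4 was -0.062. TIPARP to GSTM4 ran from -0.13 to 0.064 with 1 library left out, and was positive without extract library 1 (0.064) and without vehicle library 1 (0.034). Each ratio of CYP1A1 to the others kept its sign in these settings. The cause was not tested, except that the other scales raise all log2 fold changes by construction. The 2 filters removed no gene.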

Other observations

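Genes beside the 4 in the genome were compared as values, with no hypothesis. Within 500 kb of the glutathione transferase cluster, EPS8L3, 9042 bases from GSTM3, was at -0.35 (edgeR adjusted p = 0.0184), PSMA5, a proteasome subunit, at -0.21 (edgeR adjusted p = 0.0546), SORT1, a sorting receptor, at 0.22 (edgeR adjusted p = 0.0144) and CSF1, a macrophage growth factor, at 0.54 (edgeR adjusted p = 0.00550). Listed genes on this stretch of chromosome 1 thus moved in both directions. Within 500 kb of TIPARP the listed gene was SSR3, a subunit of the translocon-associated complex, at -0.32 (edgeR adjusted p = 0.0149). No other listed gene lay within 500 kb of CYP1A1.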
